A study of Homo sapiens with 16 samples.

Results

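FAH knockout cells were compared with control cells while both were held under the CDK4/6 inhibitor abemaciclib, in 8 of the 16 RNA-seq libraries of the study. The libraries were taken by their titles, 4 of control cells and 4 of knockout cells, and 15504 of 78986 genes or other features had a CPM (reads of a gene scaled to a fixed library total) of at least 1 in at least 4 of the 8 and were tested. All cells were T47D, an established luminal breast cancer line that expresses estrogen and progesterone receptors and is driven into the cell cycle by cyclin D. The control cells carried a control guide and the knockout cells had FAH knocked out. Both had been given 500 nM abemaciclib for 3 days, in high-glucose DMEM with serum. The other 8 libraries had the same 2 genotypes under vehicle (DMSO), and are used here to show where the knockout difference under the drug was larger or smaller than without it. They also enter the shared estimate of the spread behind each p-value. The guides, the number of clones and whether the replicates were separate cultures are not stated in the labels. All p-values therefore measure how far these libraries scatter, which may be technical, and a difference between 2 cell populations made with different guides cannot be told apart from a difference between clones.

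FAH, fumarylacetoacetate hydrolase, is the last enzyme of tyrosine breakdown and splits fumarylacetoacetate into fumarate and acetoacetate. Its loss in the liver causes hereditary tyrosinemia, in which reactive intermediates upstream of it build up. Abemaciclib blocks the kinases CDK4 and CDK6, which with D-type cyclins phosphorylate the retinoblastoma protein. Without that phosphorylation the E2F factors stay repressed, and the genes of DNA replication and later of mitosis are switched off in the arrested cell.

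FAH itself was measured first. The gene (ENSG00000103876) lies at chr15:80152789-80186949 in RefSeq's GRCh38.p14 annotation. The control libraries gave 23.4, 24.1, 25.8 and 22.6 CPM, and the knockout libraries 5.03, 5.67, 6.79 and 5.54 CPM. Every knockout library was below every control library, with means of 24.0 ± 1.35 and 5.76 ± 0.744 CPM (SD, n = 4 each), so 24.0% of the control level remained. On the log2(CPM + 1) scale used for every difference here, FAH fell by 1.89 (SE 0.079, limma adjusted p = 4.2e-19), and a two-sided exact permutation test over the 70 ways to divide the 8 libraries gave p = 0.0286, the smallest that 4 against 4 allow. FAH RNA was thus lower but not absent, and in bulk RNA fewer cells with a transcript and fewer transcripts per cell cannot be told apart. The difference under vehicle was -1.84, and the interaction, meaning the knockout-minus-control difference under abemaciclib minus the same under vehicle, was -0.04 (limma adjusted p = 0.86).

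The rest of the tyrosine pathway changed little. Of its 15 listed enzymes, 10 were tested, and TAT, HPD, HGD and OXCT1 were among those that did not reach 1 CPM in 4 of the 8 libraries. Besides FAH, decreases were found for BDH1 (log2 -0.24), which converts ketone bodies, AACS (-0.18), which activates acetoacetate, and ACAT1 (-0.15), which makes or splits acetoacetyl-CoA. Reads of BDH1 and ACAT1 were whole numbers in at most 4 of the 8 libraries, which marks here a gene whose reads may be shared with another and whose value is uncertain. PCBD1, which recycles the cofactor of the aromatic amino acid hydroxylases, rose by 0.25. GSTZ1, the isomerase that makes the substrate of FAH, was at 49.7 ± 2.60 and 45.6 ± 1.41 CPM and did not pass the test (log2 -0.12, limma adjusted p = 0.0695), but did without control replicate 3 (0.0491) and after median-of-ratios (0.0144) or quantile (0.013) scaling. The transaminases GOT1 (0.05) and GOT2 (0.05) did not pass either, nor did the cofactor reductase QDPR (-0.12), which passed after the same rescalings (0.0344 and 0.0414).

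Across all tested genes the 2 genotypes separated clearly. The first principal component of the 8 libraries held 51.9% of the variance and put the control libraries between -16.5 and -15 and the knockout libraries between 15.2 and 16.2. The second held 11.4% and set 1 control library (replicate 1, at 16.5) apart from the other 3, which lay between -9.92 and 0.02. At an adjusted p under 0.05 in limma, 3001 genes (19.4% of those tested) were higher in the knockout and 1822 (11.8%) were lower. Without control replicate 1 the counts were 3074 and 1613, and with the 8 abemaciclib libraries alone in the fit 2723 and 1660, where E2F2 (limma adjusted p = 0.0786) and HLA-E (0.0657) did not pass. Most differences were small, since 46 of the higher and 56 of the lower genes changed by 2-fold or more. The balance between higher and lower depended on scaling: 62.2% of the called genes were higher on CPM as deposited, 47.2% (2125 higher, 2379 lower) after median-of-ratios rescaling and 50.3% (2315 higher, 2289 lower) after quantile normalization. Depth was 10380902 to 11773799 reads per library, mitochondrial RNA was 14.6 to 15.3% of the control libraries and 13.1 to 13.7% of the knockout libraries, and ribosomal protein RNA was 13.7 to 14.5% and 13.5 to 13.8%. The part of these shifts in the counts of called genes was not tested.

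**Figure D1:**
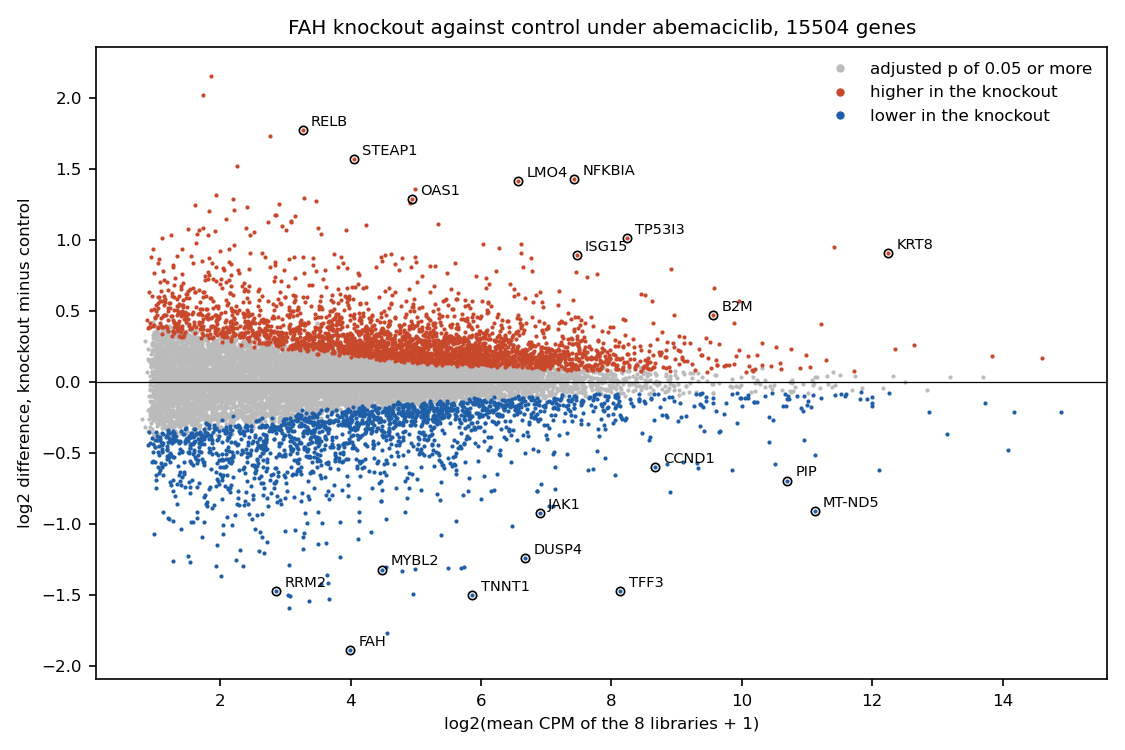
Mean level of each of 15504 tested genes over the 8 abemaciclib libraries, as log2(mean CPM + 1), on the x axis, against the log2 difference between knockout and control on the y axis. Red points (3001) were higher and blue points (1822) lower at an adjusted p under 0.05, grey points did not pass, and FAH at -1.89 is among the lowest.

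The libraries carried the markers of a luminal breast line. All 14 luminal breast markers were detected, with a summed level of 12430 to 12861 CPM in the control and 16551 to 16828 CPM in the knockout libraries. That sum was led by keratins 8 and 18, whose reads are uncertain, while 8 of the 14 markers fell and 5 rose, with a median of -0.18. For all tested genes the shares that fell and rose were 11.8% and 19.4%. The basal keratins KRT5, KRT14, KRT17 and KRT6B and TP63 were under 1 CPM in all 8 libraries, and the 10 basal or myoepithelial markers summed to 104.4 to 113.8 and 105.9 to 111.6 CPM. The 11 mesenchymal markers summed to 92.93 to 104.7 and 90.54 to 101.2 CPM, with COL1A2, PDGFRB, SNAI2, ZEB1 and ZEB2 under 1 CPM. The 10 leukocyte markers summed to 11.61 to 13.13 and 13.83 to 15.9 CPM, and CD3E, CD14, MS4A1, NKG7 and HBB were under 1 CPM. For 7 markers of kidney-derived lines of the HEK293 type the sums were 6.069 to 7.801 and 6.37 to 9.427 CPM.

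RNAs of the kinases that abemaciclib blocks and of their partners moved in both directions. CCND1, the D cyclin of luminal cells, was at 542, 477, 455 and 485 CPM in the control and 351, 311, 310 and 319 CPM in the knockout libraries. No knockout library reached the lowest control library, and CCND1 fell by 0.60 on the log2 scale (SE 0.042, limma adjusted p = 2e-13), to 65.9% of control. CCND3 fell by 0.35 and CCND2, at 2.30 against 1.55 CPM and with uncertain reads, by 0.38, though not past the test without knockout replicate 3 (limma adjusted p = 0.108). CDK6 rose from 6.50 ± 0.593 to 9.86 ± 1.11 CPM (log2 0.53), while CDK4 was level at 144 and 146 CPM (log2 0.02, limma adjusted p = 0.694). The pocket protein RBL1 fell by 0.67, and RB1 (-0.09) and RBL2 (-0.09) did not pass. CDC37, a chaperone of CDK4, rose by 0.18 with uncertain reads. AMBRA1 (0.15) and FZR1 (0.12), of the ligase complexes that degrade cyclins, did not pass. AMBRA1 did without knockout replicate 3 (limma adjusted p = 0.05) and with limma without trend (0.0474).

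Among the 8 CDK inhibitors 2 rose and 3 fell, beside 19.4% and 11.8% of all tested genes. CDKN2B, which encodes the CDK4/6 inhibitor p15, was at 4.44, 4.64, 4.33 and 4.24 CPM in the control and 10.3, 12.1, 11 and 11.3 CPM in the knockout libraries. The 2 groups were well apart, and CDKN2B rose by 1.17 (SE 0.10, limma adjusted p = 3.5e-11), to 254% of control. Its neighbour on chromosome 9, CDKN2A, which encodes p16 and ARF, rose by 0.43, from 49.4 to 66.8 CPM. CDKN2C (p18) fell by 0.67, CDKN3, a phosphatase of CDKs made in cycling cells, by 0.45, and CDKN2D (p19) by 0.35. CDKN1A (p21) was at 17.8 and 17.6 CPM (log2 -0.02), CDKN1B (p27) at 16.3 and 16.4 CPM (0.01) and CDKN1C (p57) at 1.49 and 2.06 CPM (0.29), and none of these 3 passed the test, but CDKN1C did without knockout replicate 4 (limma adjusted p = 0.049).

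The E2F factors moved in both directions. The activator E2F1 was at 24.8, 29.6, 25.4 and 29.2 CPM in the control and 12.9, 17.4, 14.7 and 14.3 CPM in the knockout libraries. It fell by 0.84 (SE 0.066, limma adjusted p = 4.7e-12), to 54.4% of control, with no overlap. E2F2 fell by 0.33 at 1.57 against 1.02 CPM, but did not pass without control replicate 1 or 4 or without knockout replicate 1 or 4 (limma adjusted p of 0.0541 to 0.148). E2F7, a repressor induced in S phase, fell by 0.92, and the partner TFDP1 by 0.15 with uncertain reads. E2F4, the repressor that works with RBL1 and RBL2 in resting cells, rose by 0.31, from 41.0 to 51.1 CPM. E2F3 (-0.15), E2F5 (0.11), E2F6 (0.23) and TFDP2 (0.06) did not pass, and E2F8 was under the filter. Of these, E2F3 passed without knockout replicate 4 (limma adjusted p = 0.0357), E2F6 without knockout replicate 2 (0.0475) and TFDP2 without control replicate 1 (0.0443). E2F3 passed too after median-of-ratios (limma adjusted p = 0.0263) and quantile (0.047) scaling.

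DNA replication genes were lower in the knockout as a group. Of 66 genes in the lists for origin licensing, the replication fork and deoxynucleotide supply, 48 (72.7%) fell and 0 rose, against 11.8% and 19.4% of all genes. Their median difference was -0.28, and that of all tested genes 0.04. RRM2, the small subunit of ribonucleotide reductase, was at 9.44, 9.99, 9.86 and 9.30 CPM in the control and 2.83, 3.63, 2.25 and 2.77 CPM in the knockout libraries. No library of the 2 groups came near the other group, and RRM2 fell by 1.47 (SE 0.072, limma adjusted p = 2e-17), to 29.8% of control. TK1, thymidine kinase, fell to 38.6% of control (32.3 ± 1.71 to 12.5 ± 0.312 CPM) and TYMS, thymidylate synthase, to 46.9%.

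Of the 18 genes of origin licensing 12 fell and 0 rose, beside 11.8% and 19.4% of all tested genes. CDT1, which loads the MCM helicase, was at 26.2, 25.5, 24.5 and 26.9 CPM in the control and 12.2, 10.2, 13.7 and 11.7 CPM in the knockout libraries, a fall by 1.06 (SE 0.062, limma adjusted p = 2.3e-15). MCM10, which starts the fork, fell by 1.12, from 8.03 ± 0.410 to 3.17 ± 0.593 CPM, and CDC6, the partner of CDT1 in loading, by 0.80. The helicase subunits MCM2 (57.6 to 38.0 CPM, log2 -0.59) and MCM5 (21.1 to 13.6 CPM, -0.60) fell less. At the fork 29 of 37 genes fell, led by the checkpoint adaptor CLSPN (-0.93), GINS2 of the helicase complex (-0.77, uncertain reads) and the chromatin assembly factor CHAF1A (-0.68). The clamp PCNA, with uncertain reads, went from 128 to 92.3 CPM (-0.47). PCLAF, the factor that binds it and which stood among the largest decreases of all protein-coding genes, went from 44.5 ± 2.97 to 17.2 ± 0.634 CPM (-1.32).

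Mitotic genes fell as well. Of 74 genes for mitotic kinases and the checkpoint, the kinetochore and condensin, and kinesins and cytokinesis, 67 (90.5%) fell and 0 rose, with a median of -0.54. Among all tested genes 11.8% fell and 19.4% rose. CDK1, the mitotic kinase, was at 23.2, 21, 21.9 and 24.4 CPM in the control and 10.2, 10.4, 9.68 and 9.53 CPM in the knockout libraries. Each knockout library was below each control library, and CDK1 fell by 1.11 (SE 0.051, limma adjusted p = 3.8e-18). MKI67, the proliferation marker Ki-67, fell from 12.1 ± 0.991 to 5.13 ± 0.0876 CPM (-1.09), TOP2A from 51.7 to 28.7 CPM (-0.83), the kinetochore protein NUF2 from 6.79 to 2.81 CPM (-1.03) and the Aurora kinase AURKB from 6.41 to 2.77 CPM (-0.96). PLK1 fell less, from 8.86 ± 1.05 to 6.14 ± 0.936 CPM (-0.47), and BIRC5, the survivin of the chromosomal passenger complex, went from 22.1 to 10.8 CPM (-0.98).

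Of the 16 genes of cyclins E, A and B and their kinases and phosphatases, 11 fell and 0 rose, beside 11.8% and 19.4% of all tested genes. After median-of-ratios or quantile scaling 13 fell. CCNE2 fell by 1.18, to 34.6% of control, while CCNE1 did not pass (6.16 against 5.31 CPM, log2 -0.18). CCNA2 fell by 0.87 and CCNB2 by 0.64, while CCNB1 was at 47.3 and 44.2 CPM (-0.09, limma adjusted p = 0.134) and passed without control replicate 1 (-0.15, 0.00387). CCNB1 passed too after median-of-ratios (limma adjusted p = 0.0368) and quantile (0.0371) scaling. The inhibitory kinase PKMYT1 fell by 0.92, its relative WEE1 by 0.21, and the phosphatases CDC25A by 0.58 and CDC25C by 0.57. CCNF (-0.38), CKS1B (-0.37, uncertain reads) and SKP2 (-0.20, uncertain reads) fell too. CDK2 (-0.07), CDC25B (-0.19) and CKS2 (-0.05) did not pass. SKP2 did not pass without knockout replicate 4 (limma adjusted p = 0.0714), and CDC25B passed without control replicate 3 or 4 or knockout replicate 2 (0.0314 to 0.0412). It also passed in limma after median-of-ratios (adjusted p = 0.0152) and quantile (0.0379) scaling and with pseudocounts of 0.1 (0.0431) and 0.5 (0.0475). The same held with a filter of at least 5 CPM (0.0465) and without trend (0.0429).

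MYBL2, the MYB factor of the complex that switches on mitotic genes, was at 29.3, 32.8, 30.9 and 30.9 CPM in the control and 12, 10.7, 12 and 12.5 CPM in the knockout libraries. It fell to 38.1% of control (log2 SE 0.046, limma adjusted p = 2.1e-21) with no overlap, and FOXM1, which takes over later in the cycle, fell by 0.84. In the list for homologous recombination and the Fanconi pathway 19 of 25 fell and 0 rose, against 11.8% and 19.4% of all tested genes. Those that fell included RAD54L (-0.86), BRCA1 (-0.63) and BRCA2 (-0.63).

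**Figure D2:**
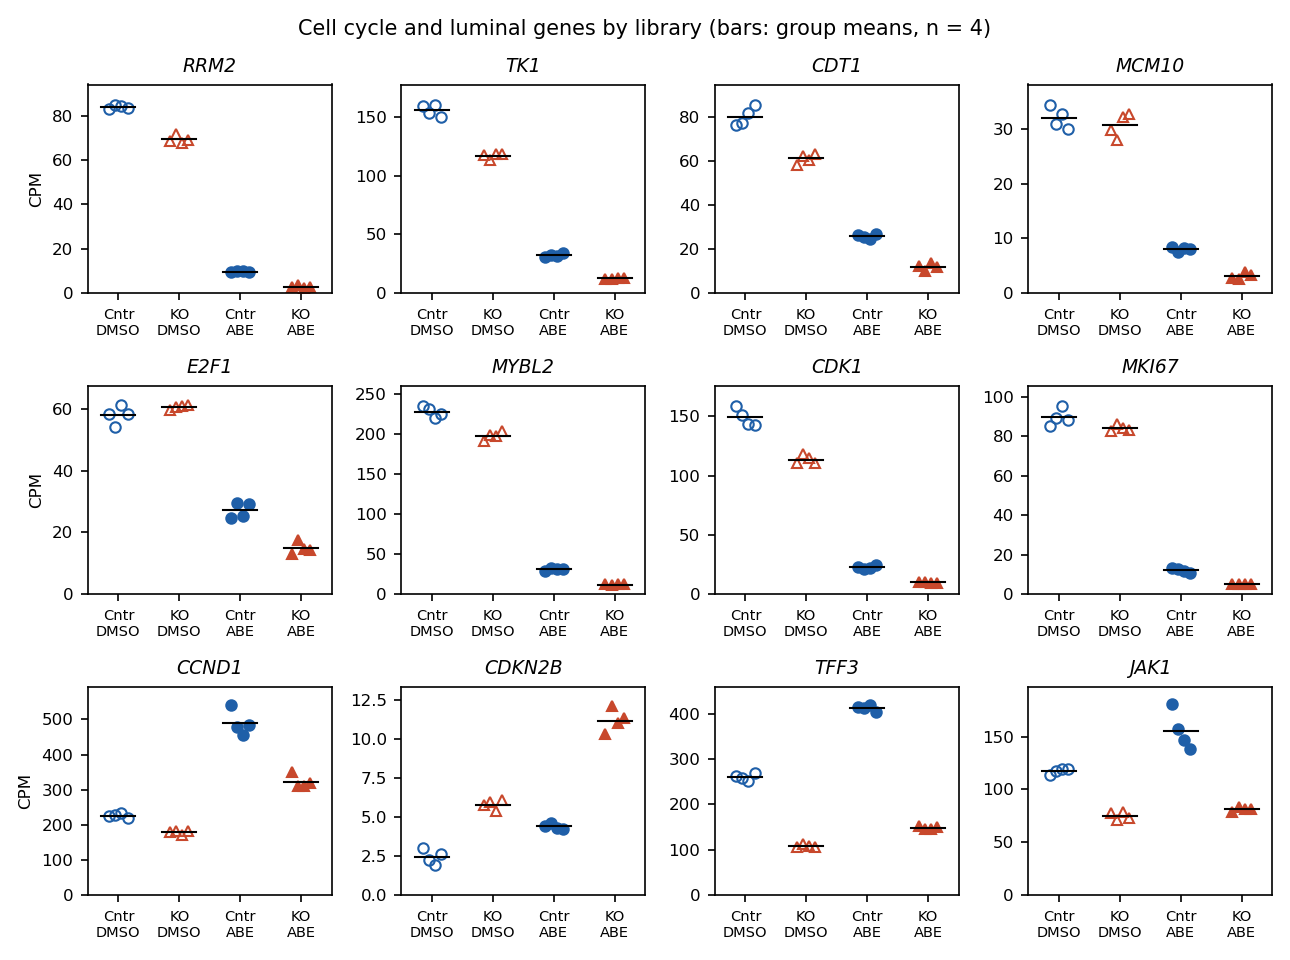
CPM of 12 genes in each of the 16 libraries, by group on the x axis (circles control, triangles knockout, open under vehicle, filled under abemaciclib), with group means as bars. RRM2 falls from 9.64 to 2.87 CPM between the abemaciclib groups and CDKN2B rises from 4.41 to 11.2 CPM, and the filled triangles and circles do not overlap for these genes.

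Promoters of these genes are shown because the genes fell together and belong to groups long known for separate promoter elements, the E2F site of replication genes and the cell cycle homology region (CHR) of mitotic genes. The 250 bases before the start of each gene in RefSeq (GRCh38.p14) were searched on both strands for TTTCCCGC, TTTCGCGC, TTTGCCGC or TTTGGCGC as the E2F site and for TTTGAA as the CHR. An E2F match stood in 2.79% of 27305 promoters, in 4.53% of those of tested genes, in 24.6% of the replication lists (14 of 57 with a promoter in the table) and in 8.06% of the mitotic lists. A CHR match stood in 13.6% of all promoters, in 8.18% of those of tested genes, in 40.3% of the mitotic lists (25 of 62) and in 1.75% of the replication lists. The element CCAAT stood in 33% of all promoters, 35.6% of those of tested genes, 52.6% of the replication and 69.4% of the mitotic lists. These shares cover tested list members whether or not they fell. The lists are groups long known for E2F sites or the CHR, so high shares were to be foreseen and say nothing about the knockout. A match is a description of these letters and not a bound site, and no match was found for RRM2, TK1, MYBL2, MCM10, CDC6 and CLSPN (E2F) or for NUF2 and AURKB (CHR). In the stretches below, on the strand of the gene, capitals mark the match.
CDT1, chr16:88803734-88803781, plus strand, E2F match on the opposite strand: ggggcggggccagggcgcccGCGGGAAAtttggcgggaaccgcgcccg
E2F1, chr20:33686386-33686438, minus strand, 2 E2F matches, the first on the opposite strand: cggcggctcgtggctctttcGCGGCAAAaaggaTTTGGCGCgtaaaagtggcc
TOP2A, chr17:40418022-40418067, minus strand, CHR match on the opposite strand: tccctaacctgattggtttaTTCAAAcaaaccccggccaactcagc
CDK1, chr10:60778150-60778195, plus strand, CHR match: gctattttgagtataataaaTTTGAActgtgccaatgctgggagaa
PLK1, chr16:23678840-23678885, plus strand, CHR match: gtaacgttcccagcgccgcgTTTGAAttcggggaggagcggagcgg

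The replication and mitotic genes were also set against the vehicle libraries, which share no library with the comparison under the drug. Under vehicle 25.4% of all genes were higher and 13.4% lower in the knockout, and 24 of the 66 replication genes and 47 of the 74 mitotic genes fell. Over all genes the interaction was positive for 4.92% and negative for 6.48%, and it was negative for 27 replication genes (positive for 2) and for 33 mitotic genes (positive for 0). RRM2 shows the size of this: its control mean was 83.8 CPM under vehicle and 9.64 CPM under the drug, its knockout mean 69.3 and 2.87 CPM. That is 11.5% of the vehicle level in control cells and 4.14% in knockout cells, and the interaction was -1.20 (limma adjusted p = 2.4e-10). MYBL2 stood at 13.6% of its vehicle level in control and 5.96% in knockout cells (interaction -1.12), E2F1 at 47% and 24.4% (-0.90), CDK1 at 15.2% and 8.77% (-0.72) and MKI67 at 13.5% and 6.10% (-1.0). E2F1 (0.07), MCM10 (-0.06), CCNE2 (-0.11), CLSPN (0.18) and EXO1 (0.03), an exonuclease of repair, did not pass the test under vehicle, and each fell under the drug. CDKN2B was higher in the knockout under both (vehicle 0.98, interaction 0.19, limma adjusted p = 0.458), while the interaction was positive for CDKN2A (0.35).

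**Figure D3:**
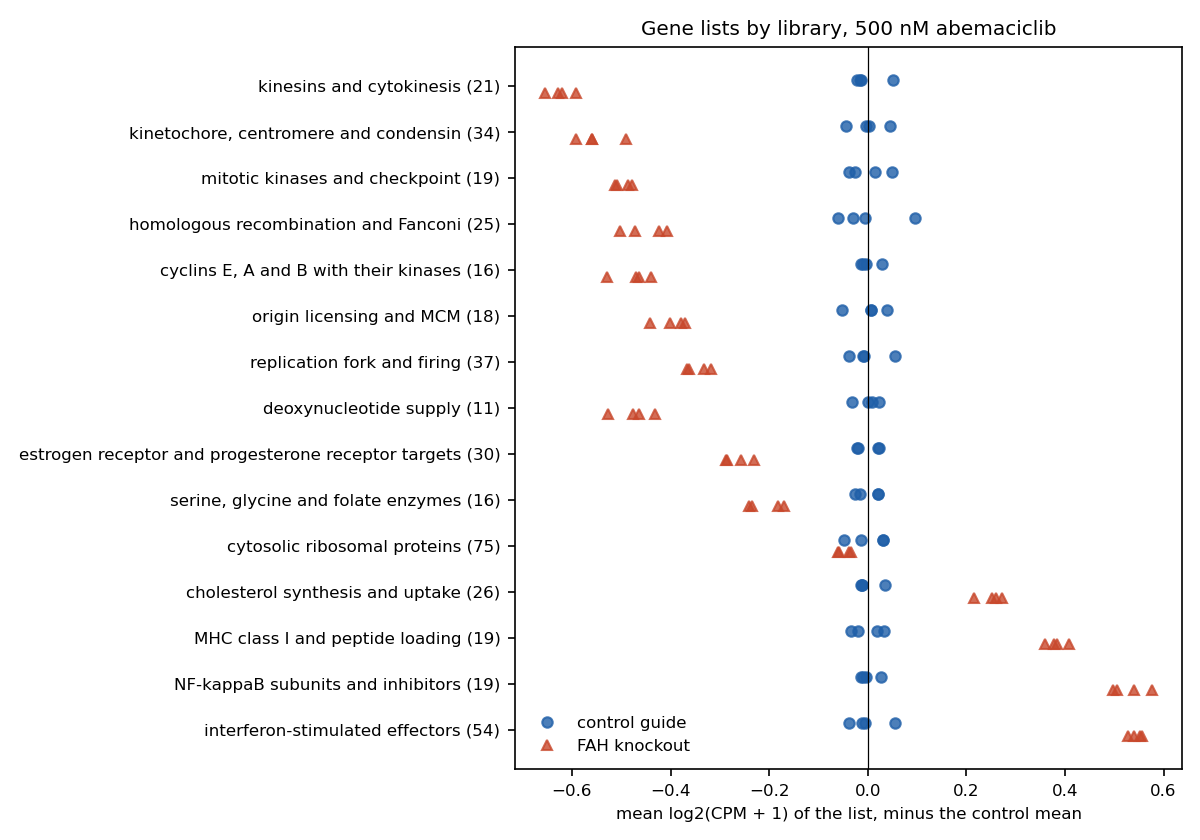
Mean log2(CPM + 1) of the tested genes of 15 lists in each abemaciclib library, as the difference from the control mean on the x axis, with the number of genes in brackets. Blue circles are control and red triangles knockout libraries (n = 4 each), and the 8 lists of the cell cycle at the top lie to the left and the interferon, MHC and NF-kappaB lists to the right in every knockout library.

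Interferon-response genes were higher in the knockout. Interferons act through receptors, the JAK kinases and STAT factors on genes that carry an interferon-stimulated response element (ISRE), and these genes block viruses and raise antigen presentation. In the lists for nucleic acid sensors, interferon-stimulated effectors and MHC class I with peptide loading, 86 of 96 genes were tested. Of these 70 (81.4%) rose and 3 fell, against 19.4% and 11.8% of all tested genes, with a median of 0.46. None of the 8 interferon ligand genes listed reached 1 CPM in 4 of the 8 libraries, so the ligands themselves were not tested.

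Among the 54 tested effectors 45 rose, and IFI27 alone fell, where 19.4% of all tested genes rose and 11.8% fell. OAS1, which makes the signal that activates RNase L, was at 16.2, 16.9, 15.8 and 18.3 CPM in the control and 44.4, 43.5, 41.2 and 41.2 CPM in the knockout libraries. The groups were far apart, and OAS1 rose by 1.29 (SE 0.063, limma adjusted p = 1.8e-17), to 253% of control. IFIT1, which binds viral RNA ends, was at 64.5, 68.5, 63.4 and 63.8 CPM and at 124, 127, 132 and 133 CPM, and rose by 0.98. ISG15, which is attached to proteins like ubiquitin, rose from 123 ± 5.67 to 230 ± 9.09 CPM (0.90), the antiviral radical enzyme RSAD2 from 1.79 ± 0.298 to 5.45 ± 0.592 CPM (1.21) and XAF1 from 3.46 ± 0.835 to 8.99 ± 0.988 CPM (1.18). IFIT3, from 16.8 to 44.8 CPM (1.36), and the membrane protein IFITM3, from 24.5 to 54.1 CPM (1.12), rose with uncertain reads. RTP4 and TRIM22 were under 1 CPM in all 4 control libraries and entered the test only through the knockout, so their increases had to appear. Without this pair 43 of 52 effectors rose, and 68 of 84 genes (81%) of the 3 lists together.

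IFI27 went the other way. It was at 233, 257, 244 and 256 CPM in the control and 186, 198, 198 and 203 CPM in the knockout libraries, and fell by 0.33 (SE 0.037, limma adjusted p = 9.1e-09). All 4 knockout libraries were below the lowest control library. Under vehicle it was 74.8 CPM in control and 128 CPM in knockout cells and rose by 0.77, so its interaction was -1.10 (limma adjusted p = 1.3e-16).

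Of the 13 tested sensors 9 rose and 0 fell, while 19.4% of all tested genes rose and 11.8% fell. IFIH1 (MDA5, a sensor of long double-stranded RNA) rose from 17.0 ± 1.25 to 27.2 ± 0.996 CPM (0.65), the related RIGI by 0.61 with uncertain reads, and the adaptors TICAM1 by 0.56 and MYD88 by 0.46. STING1, the adaptor of DNA sensing, was at 1.59 and 1.24 CPM and did not pass. Among 22 receptors, JAK-STAT components and IRF factors, 8 rose and 1 fell. IRF1 rose by 1.10 with uncertain reads, and IRF7 by 0.28. The gene that fell was the kinase JAK1, at 181, 157, 147 and 138 CPM in the control and 78.7, 83.3, 81.8 and 81.7 CPM in the knockout libraries. JAK1 dropped to 52.3% of control (log2 -0.92, SE 0.052, limma adjusted p = 8.1e-16), and control replicate 1 was the highest of the 8.

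In the MHC class I list 16 of 19 tested genes rose and 2 fell, beside 19.4% and 11.8% of all tested genes. PSMB9, a subunit of the immunoproteasome, was at 5.98, 4.99, 4.67 and 6.26 CPM in the control and 14.3, 16.3, 14.3 and 13.7 CPM in the knockout libraries. It rose by 1.28 (SE 0.091, limma adjusted p = 3.9e-13) with no overlap, and its relative PSMB8 rose by 0.59. The peptide transporter TAP1 rose from 51.3 ± 1.16 to 76.7 ± 2.98 CPM (0.57) and the light chain B2M from 633 ± 18.2 to 878 ± 9.93 CPM (0.47). HLA-B rose by 0.57, but reads of HLA genes are uncertain here, as their sequences are near copies of each other. The chaperone CALR (-0.13) and HLA-E (-0.10) fell, both with uncertain reads, and HLA-E did not pass when control replicate 1, 2 or 4 or knockout replicate 1, 2 or 3 was left out, nor without control replicate 2 or 3 or knockout replicate 3 or 4 under vehicle (limma adjusted p of 0.0504 to 0.155).

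NF-kappaB factors hold the third group of genes that rose. In resting cells inhibitors keep NF-kappaB in the cytoplasm, and active NF-kappaB raises its own inhibitors and the precursors of its subunits. Of 19 tested subunits, inhibitors and adaptors 13 rose and 0 fell, against 19.4% and 11.8% of all tested genes, with a median of 0.38. RELB was at 2.24, 3.42, 3.65 and 4.24 CPM in the control and 13.9, 15.1, 12.8 and 13.3 CPM in the knockout libraries. Every knockout library exceeded every control library more than the groups varied within, and the rise of 1.77 (SE 0.12, limma adjusted p = 5.4e-14), to 407% of control, was the largest increase among the protein-coding genes that the naming rule took. The inhibitor NFKBIA was at 88.8, 91.0, 96.1 and 92.7 CPM and at 249, 252, 248 and 252 CPM, a rise of 1.43. NFKBIE (0.91), NFKB2 (0.90), the ubiquitin ligase BIRC3 (0.88) and NFKB1 (0.53) rose too. TNFAIP3 was under 1 CPM in every control library and so could only pass by rising, and without it 12 of 18 rose.

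Of the 27 genes listed as NF-kappaB output 14 were tested, and 7 rose and 0 fell, beside 19.4% and 11.8% of all tested genes. ICAM1, the adhesion molecule for leukocytes, was at 4.67, 5.34, 4.25 and 4.24 CPM in the control and 12.6, 13.8, 12.9 and 11.8 CPM in the knockout libraries and rose by 1.30. CCL2 and TNF were below 1 CPM in all control libraries, so their increases rest on the filter, and without them 5 of 12 rose. TNIP1 (0.39) and TNFAIP2 (0.40) rose, and SOD2 (18.3 against 20.2 CPM, log2 0.14) did not, though it did without control replicate 1 (limma adjusted p = 0.0247).

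**Figure D4:**
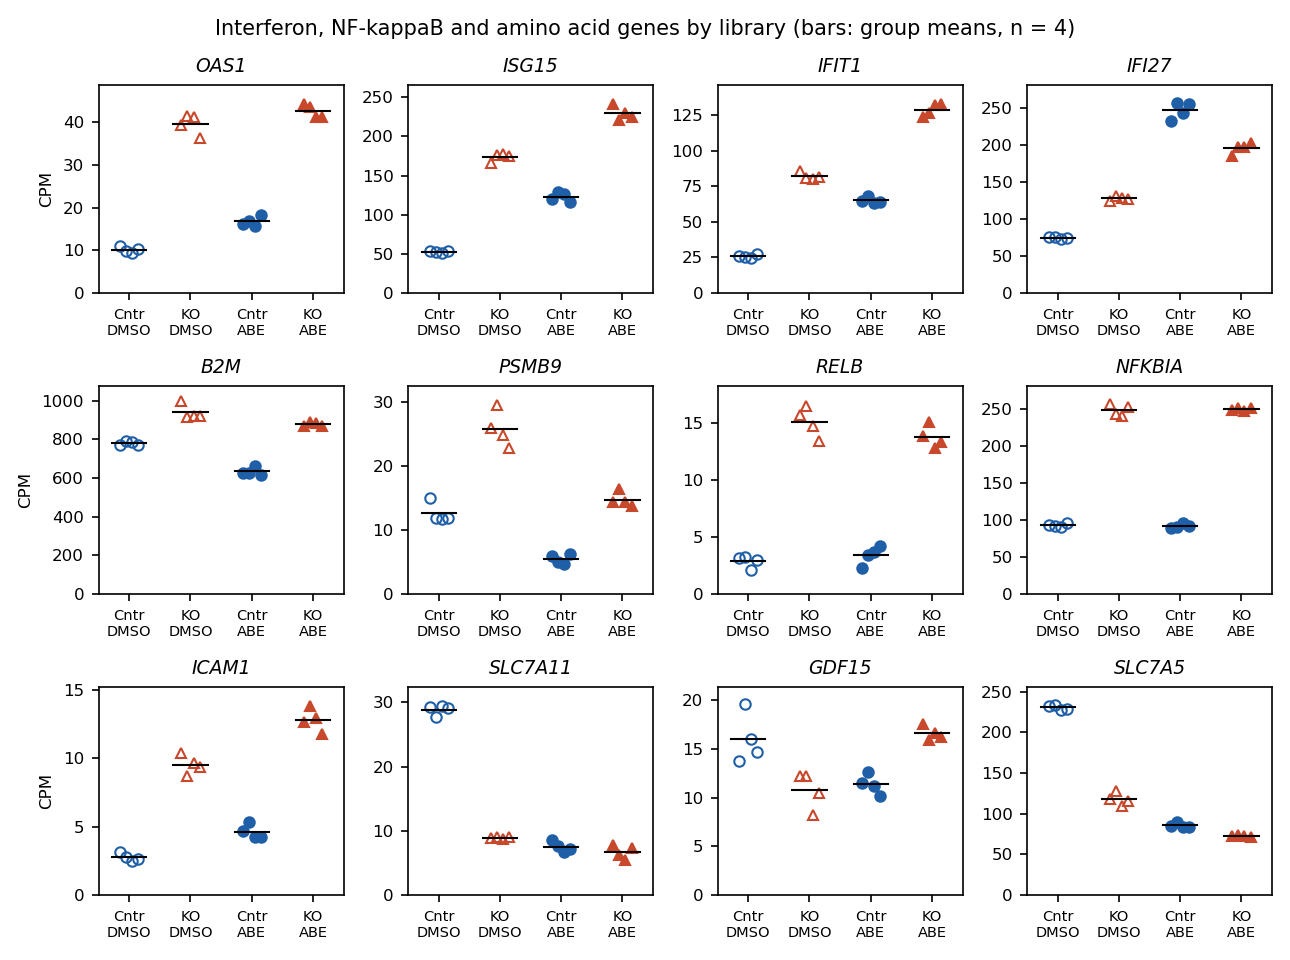
CPM of 12 genes in each of the 16 libraries, by group on the x axis (circles control, triangles knockout, open under vehicle, filled under abemaciclib), with group means as bars. NFKBIA is at 92.2 and 250 CPM in the abemaciclib groups and 93.3 and 249 CPM in the vehicle groups, while SLC7A11 is at 28.9 and 8.94 CPM in the vehicle groups and at 7.51 and 6.71 CPM in the abemaciclib groups.

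Promoters of interferon and NF-kappaB genes are given for the same reason as above. GAAANNGAAA, the core of the ISRE, stood in 3.07% of all promoters, 2.25% of those of tested genes and 59.5% of the effectors (25 of 42 with a promoter in the table). The kappaB element, searched by its consensus, stood in 9.57% of all promoters, 11.6% of those of tested genes and 43.8% of the NF-kappaB subunits and inhibitors (7 of 16). Here too the shares cover tested list members whether or not they rose. High shares follow from how such lists are made and say nothing about the knockout. No match was found in this window for OAS1, XAF1, RSAD2 and PSMB9 (ISRE) or ICAM1 and NFKB2 (kappaB). Both strands were searched in each case, and capitals again mark the match on the gene's strand.
IFIT3, chr10:89327855-89327904, plus strand, ISRE match on the opposite strand: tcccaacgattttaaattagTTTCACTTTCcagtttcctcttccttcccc
ISG15, chr1:1013364-1013419, plus strand, 2 overlapping ISRE matches: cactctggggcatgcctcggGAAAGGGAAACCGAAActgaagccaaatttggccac
IFIT1, chr10:89392487-89392549, plus strand, 2 ISRE matches on the opposite strand: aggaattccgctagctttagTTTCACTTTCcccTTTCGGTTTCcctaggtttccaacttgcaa
NFKBIA, chr14:35404801-35404850, minus strand, kappaB match on the opposite strand: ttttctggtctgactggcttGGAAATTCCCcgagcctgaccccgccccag
BIRC3, chr11:102317329-102317378, plus strand, kappaB match on the opposite strand: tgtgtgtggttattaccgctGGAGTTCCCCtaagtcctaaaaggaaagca

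The interferon genes differed between genotypes more under vehicle than under the drug. Under vehicle 52 of the 54 effectors rose in the knockout, with a median of 0.92 against 0.47 under abemaciclib, and the interaction was negative for 27 and positive for 0. Over all tested genes 25.4% rose under vehicle, and the interaction was negative for 6.48% and positive for 4.92%. The control mean of IFIT1 was 25.8 CPM under vehicle and 65.1 CPM under abemaciclib, and its knockout mean 81.9 and 129 CPM. That is 252% of the vehicle level in control and 157% in knockout cells (interaction -0.65, limma adjusted p = 3.5e-09). ISG15 was at 232% and 132% (interaction -0.80). For the 19 NF-kappaB subunits and inhibitors the median was 0.47 under vehicle (16 rose) and 0.38 under abemaciclib. The interaction was negative for 1 of them and positive for 0, with a median of -0.11, and it was 0.02 for NFKBIA and -0.29 for RELB (limma adjusted p = 0.821 and 0.304).

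Some amino acid stress genes had the opposite interaction. Cells short of amino acids make the factor ATF4, which raises asparagine and serine synthesis, amino acid transporters and tRNA synthetases. Under vehicle some of these genes were far lower in the knockout, though of the 17 tested amino acid transporters 6 were higher and 7 lower. Among all tested genes 25.4% were higher and 13.4% lower under vehicle. ASNS, asparagine synthetase, was at 59.6 and 16.9 CPM under vehicle, and under abemaciclib at 18.7, 19.8, 18.0 and 19.8 CPM in the control and 16.5, 14.8, 16.9 and 13.7 CPM in the knockout libraries. The difference, with uncertain reads, was -1.76 under vehicle and -0.29 under abemaciclib, and the interaction of 1.47 (limma adjusted p = 7.4e-14) was the largest of the named genes. SLC7A11, the cystine carrier, was at 28.9 and 8.94 CPM under vehicle and at 7.51 ± 0.775 and 6.71 ± 1.06 CPM under abemaciclib, where it did not pass the test (-0.15, interaction 1.44). For PSAT1 (0.98, uncertain reads), SLC7A5 (0.73), PCK2 (0.71) and TRIB3 (0.70) the interaction was positive too. Apart from TRIB3, these genes were named for their large interactions. The interaction was positive for 8 of 21 ATF4 and stress regulators and 7 of 17 amino acid transporters. It was positive for 6 of 16 serine, glycine and folate enzymes, and negative for 0 in these lists. For 18 asparagine, proline, glutamine and glutathione enzymes it was positive for 5 and negative for 2. Over all tested genes it was positive for 4.92% and negative for 6.48%.

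Several of these genes stayed lower in the knockout under abemaciclib. Of 16 tested serine, glycine and folate enzymes 9 fell and 0 rose, and PHGDH, which opens serine synthesis, was at 29.1, 32.1, 29.7 and 28.4 CPM in the control and 14.2, 15.3, 14.9 and 14.7 CPM in the knockout libraries. PHGDH fell by 0.97 (SE 0.052, limma adjusted p = 2.8e-16), without overlap, and by 1.48 under vehicle. Of 21 ATF4 and stress regulators 11 fell and 3 rose, and the lowest difference was -0.78. Those that fell included the pseudokinase TRIB3 (-0.48) and, with uncertain reads, ATF4 itself (-0.24). Without control replicate 2, 1 of the 21 rose. Of 20 cytosolic tRNA synthetases 7 fell and 5 rose, against 12 and 2 under vehicle, with a positive interaction for 12. Of all tested genes 11.8% fell and 19.4% rose under abemaciclib, and 13.4% and 25.4% under vehicle. Without control replicate 3 the synthetases that fell were 4, and without knockout replicate 1 they were 3. GDF15, a secreted stress factor that answers to both ATF4 and p53, changed sides: it was at 11.4 ± 0.988 and 16.6 ± 0.703 CPM under abemaciclib, a rise of 0.51, and at 16 and 10.8 CPM under vehicle, a fall by 0.53 (interaction 1.04, limma adjusted p = 2.6e-06). SLC6A14, a broad amino acid carrier chosen after its values were seen, was under 1 CPM in all control libraries and at 4.85, 5.05, 4.25 and 3.36 CPM in the knockout libraries.

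Ribosomal protein genes, nearly all with uncertain reads (70 of 75), showed small shifts. Under abemaciclib 31 fell and 5 rose, with a median of -0.06, against 40 and 2 after median-of-ratios rescaling and 24 and 10 after quantile normalization. Without control replicate 3, 20 fell, and without control replicate 1, 3 rose. Under vehicle 67 fell and 0 rose, and the interaction was positive for 48 and negative for 0. Of all tested genes 11.8% fell and 19.4% rose under abemaciclib, and 13.4% and 25.4% under vehicle. The interaction was positive for 4.92% and negative for 6.48% of all tested genes. The nuclear genes of the respiratory chain moved likewise, with 12 of 52 lower and 4 higher under the drug, 38 and 0 under vehicle, and 24 positive interactions. Without knockout replicate 4 the count of higher genes was 1. Under the drug 16 of the 52 fell and 1 rose after median-of-ratios rescaling, and 14 and 2 after quantile normalization. Of the 13 mitochondrially encoded mRNAs, all with uncertain reads, 8 fell and 1 rose under the drug, and MT-ND5 went from 2894 to 1544 CPM (-0.91). After median-of-ratios rescaling 8 fell and 0 rose, and after quantile normalization 6 and 2. Under vehicle 4 of these mRNAs fell and 6 rose, and the interaction was negative for 9 and positive for 0. The share of mitochondrial RNA given above was also lower in the knockout under abemaciclib, and its part in these values was not tested.

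Hormone receptor targets were mostly lower. Of 30 tested targets of the estrogen and progesterone receptors 18 fell and 5 rose, with a median of -0.29 (all genes 0.04). The shares of all tested genes that fell and rose were 11.8% and 19.4%. TFF3, a secreted trefoil peptide of luminal cells, was at 416, 413, 419 and 404 CPM in the control and 151, 146, 147 and 150 CPM in the knockout libraries. The 2 groups kept a wide gap, and TFF3 fell by 1.47 (SE 0.032, limma adjusted p = 1.2e-26), to 36.0% of control. The ligand AREG fell by 1.07, PDZK1 by 0.92, its fellow trefoil peptide TFF1 by 0.73, and ESR1, the estrogen receptor itself, by 0.34 (99.4 ± 4.90 to 78.3 ± 2.47 CPM). PGR fell by 0.29 with uncertain reads. The targets MYC (149 to 192 CPM, 0.36) and IRS1 (0.30) rose. CITED1, a coactivator of the estrogen receptor, fell by 1.42, from 17.4 ± 1.54 to 5.88 ± 0.417 CPM. An unnamed gene that overlaps it in the annotation (ENSG00000285547) gave almost the same values, 16.9 and 6.00 CPM, so reads of the pair cannot be told apart.

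The luminal factors and keratins rose in 12 and fell in 7 of 23 genes, beside 19.4% and 11.8% of all tested genes. TFAP2B, an AP-2 factor, rose from 1.50 ± 0.688 to 6.06 ± 0.799 CPM (1.53), with control replicate 1 at 2.52 CPM above the other controls at 1.06 to 1.27 CPM. KRT8 (3363 to 6323 CPM, 0.91) and KRT18 (0.95) rose with uncertain reads. GATA3, the luminal master factor, fell by 0.26, from 1562 ± 31.3 to 1301 ± 28.4 CPM. LMO4, a LIM protein of luminal cells, was at 53.3, 52.5, 50.4 and 47.1 CPM in the control and 139, 135, 137 and 139 CPM in the knockout libraries and rose by 1.42 (limma adjusted p = 1.5e-22). PIP, a secreted apocrine protein, fell by 0.69 under abemaciclib (2044 ± 78.3 to 1263 ± 26.8 CPM) and rose by 0.40 under vehicle (569 to 752 CPM), with an interaction of -1.10 (limma adjusted p = 5.7e-19).

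Cholesterol synthesis rose as a list: 15 of 26 genes were higher and 0 lower, with a median of 0.23. Of all tested genes 19.4% were higher and 11.8% lower, the shares beside which each list count of this paragraph stands. HMGCS1, an early enzyme of the pathway, was at 47, 44.9, 41.6 and 44.1 CPM in the control and 70.8, 78.5, 75.0 and 77.3 CPM in the knockout libraries, and rose by 0.75. LSS rose by 0.57, the sterol sensor INSIG1 by 0.53 and SQLE by 0.39. Of 16 YAP and TGF-beta targets 8 rose and 0 fell, among them TGFB2 (1.13), CCN2 (0.87) and CCN1 (136 ± 2.08 to 203 ± 2.67 CPM, 0.58). Among 20 p53 targets 9 rose and 3 fell: TP53I3 rose from 199 to 403 CPM (1.02, uncertain reads) and BAX by 0.55, while MDM2 (-0.03) did not pass, and BBC3 (0.14) did so without control replicate 2 or knockout replicate 4 (limma adjusted p = 0.0276 and 0.0463). Of 16 tested NRF2 targets, which answer to oxidants, 7 rose and 1 fell. NQO1 rose by 0.23 and HMOX1 was at 5.69 and 5.59 CPM (-0.03). In the list for glycolysis and hypoxia 15 of 29 fell and 3 rose, led by the lactate carrier SLC16A3 (15.8 ± 1.09 to 6.68 ± 0.689 CPM, -1.13).

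Some of the largest changes belonged to none of these groups. STEAP1, a metalloreductase of the plasma membrane, was at 7.01, 8.37, 6.71 and 7.32 CPM in the control and 23.6, 22.9, 25.4 and 23.2 CPM in the knockout libraries, a rise of 1.57 to 324% of control, and its relative STEAP2 rose by 0.66. PLEKHS1 rose by 1.74 (2.14 to 9.41 CPM), the collagen COL16A1 by 1.29, the factor NFE2L3 by 1.23 and the ephrin EFNB2 by 1.18. Among the decreases, the serpin SERPINI1 fell by 1.59 (11.4 to 3.14 CPM), the transporter ABCC12 by 1.54 (14.4 to 4.30 CPM), the folate receptor FOLR1 by 1.52 (17.9 to 5.58 CPM), SIPA1 by 1.51 and the RNA-binding protein LIN28A by 1.50. TNNT1, a troponin of slow muscle, was at 77.8, 90.2, 88.4 and 84.0 CPM in the control and 29.3, 31.7, 28.9 and 28 CPM in the knockout libraries and fell by 1.50. MATN3 fell by 1.33 and VSIG10L by 1.42. Apart from STEAP2, these genes were taken only where the 4 knockout libraries lay on 1 side of the 4 control libraries. Their separation was thus fixed by the naming rule, as for the other genes named for the largest changes, such as RELB, OAS1, RRM2 and TFF3. Of the 15504 tested genes, all knockout libraries lay above all control libraries in 2643 and below them in 1603. Among genes that do not code for protein, the largest increases were of ENSG00000299914 (1.26), ENSG00000214708 (1.14) and ENSG00000293643 (1.04), and the largest decreases of ENSG00000307050 (-1.77) and ENSG00000303941 (-1.49).

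**Figure D5:**
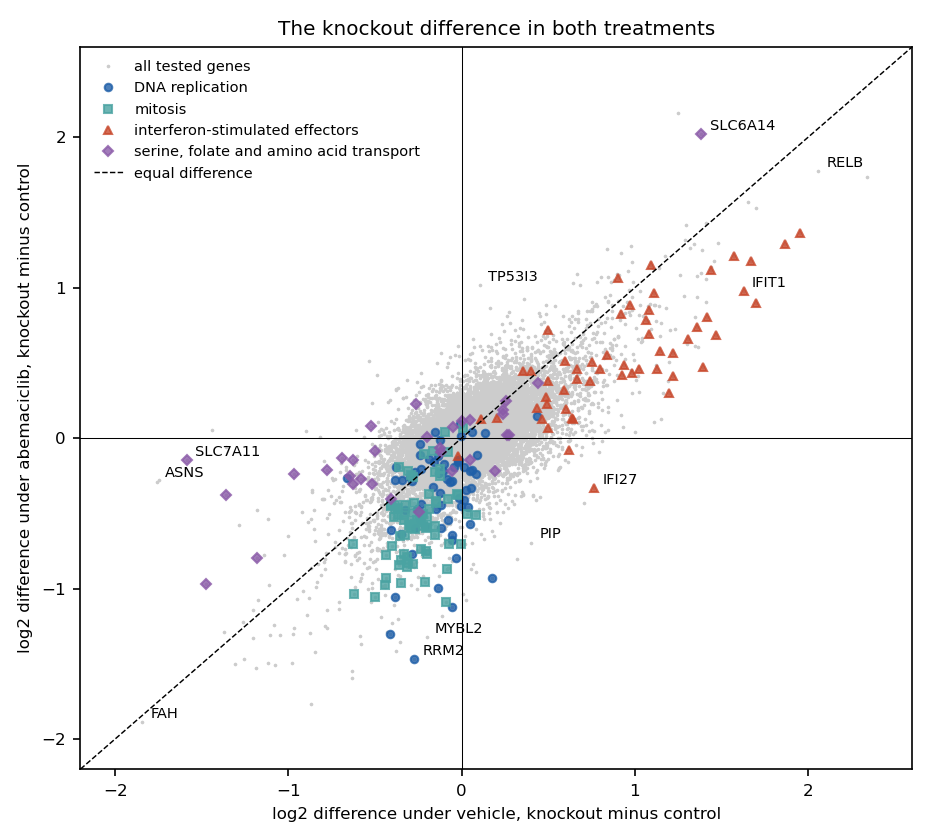
Log2 difference between knockout and control under vehicle (x axis) and under abemaciclib (y axis) for all tested genes (grey) and for DNA replication, mitosis, interferon-stimulated effectors, and serine, folate and amino acid transport lists. Points on the dashed line have equal differences, FAH lies close to it at -1.84 and -1.89, and RRM2 (-0.27 and -1.47) and ASNS (-1.76 and -0.29) lie far from it on opposite sides.

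Under vehicle 3943 genes were higher and 2072 lower in the knockout, and 3082 genes were called under both treatments, which is 63.9% of those called under abemaciclib and 51.2% of those called under vehicle. In 2954 of them the direction was the same and in 128 it was opposite. Of all tested genes 25.4% were called higher and 13.4% lower under vehicle, and 19.4% and 11.8% under abemaciclib. Both comparisons use the same estimate of the spread of each gene, so their calls are not independent. The interaction passed the test with a positive value in 763 genes and with a negative value in 1005. The largest positive values after those given above were of XAGE2 (0.95), TP53I3 (0.91), OLR1 (0.70) and CCN2 (0.70). The largest negative values outside the cell cycle were of CAMK2B (-1.14), MDGA1 (-1.13), IFI27 and PIP. CAMK2B was at 9.07 and 6.46 CPM under abemaciclib and 4.67 and 8.24 CPM under vehicle, and MDGA1 at 18.8 and 10.3 CPM and at 5.91 and 7.67 CPM.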

How the data were processed

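RNA-seq of T47D cells gave 16 libraries, 4 in each of 4 groups. The authors deposited 1 table of CPM (reads of a gene scaled to a library total of 1000000), and per the submitters' processing notes STAR 2.7.11, SAMtools 1.22.1, MultiQC 1.32 and featureCounts of Subread 2.1.1 were used with GRCh38. Not given in the sources used here are the annotation release, the strand setting and the use of molecular identifiers. CPM steps gave whole reads (within 0.02) for 70.5 to 71.8% of values, so no count test was run. Genes whole in at most 4 of the 8 libraries (4950 tested genes) are called uncertain.

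Genes with at least 1 CPM in 4 of the 8 abemaciclib libraries were kept and the 92 spike-in controls left out. Log2(CPM + 1) was fitted with limma 3.58.1 (R 4.3.3) to 4 group means over all 16 libraries, with a trended prior, and p-values were adjusted over the whole table by Benjamini-Hochberg. The pseudocount understates changes of low genes. The fit was run on simulated whole counts with the same spread setting for every gene. That run cannot show how the fit performs on fractional values such as these. Named were the 15 protein-coding genes changed most in each direction without overlap at a mean of at least 5 CPM, the 10 largest interactions each way, 5 genes of other types each way, all members of the tyrosine, cyclin, CDK inhibitor and E2F lists, and of each of the 48 lists up to 6 called members in the commoner direction and 3 in the other, with members that did not pass as values. GATA3, ISG15, PCNA, PLK1, SLC6A14 and the genes under 1 CPM in all control libraries were chosen after their values were seen. Some genes that the rule or the lists take are not reported here. The genes, lists and comparisons were chosen with earlier results of these data known. Reads per library were inferred from the CPM step, and intervals of counting error were not computed.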

Additional observations from a re-analysis of the deposited data

Results flagged for a closer look

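For 81 of the 180 genes named in the report or chosen by its naming rule, the difference between knockout and control under abemaciclib differed from that under vehicle by the interaction test in limma at an adjusted p under 0.05. Of all 15504 tested genes the interaction was positive for 4.92% and negative for 6.48%. The naming rule took genes for their large interactions or large knockout differences. The high count among the 180 thus follows in part from that choice, and how large a part was not tested. A negative log2 value means that the knockout-minus-control difference was lower under abemaciclib. Among the genes of DNA replication the interaction was negative for RRM2 (-1.20), TYMS (-0.86), MCM10 (-1.07), CDC6 (-0.77), CDT1 (-0.67), MCM2 (-0.38), MCM5 (-0.48), CLSPN (-1.11), GINS2 (-0.48), CHAF1A (-0.62), PCLAF (-0.73) and PCNA (-0.21). Limma adjusted p-values ranged from 2.4e-10 for RRM2 to 0.00226 for PCNA. Among the genes of mitosis and repair the interaction was negative for CDK1 (-0.72), MKI67 (-1.0), TOP2A (-0.52), NUF2 (-0.41), AURKB (-0.61), BIRC5 (-0.54), FOXM1 (-0.69), MYBL2 (-1.12), RAD54L (-0.58) and EXO1 (-1.10). The limma adjusted p was between 2.8e-14 for MYBL2 and 0.0322 for NUF2. Among cyclins, CDK inhibitors and E2F factors the interaction was negative for CCND1 (-0.26), CCND3 (-0.39), CCNE2 (-1.07), CCNA2 (-0.49), CDKN2C (-0.80), RBL1 (-0.57), E2F1 (-0.90), E2F7 (-0.70) and PKMYT1 (-0.79), and positive for CDKN2A (0.35), E2F5 (0.28) and CKS2 (0.37). These had limma adjusted p-values from 2.6e-08 for E2F1 to 0.0259 for E2F5. Among interferon, MHC and NF-kappaB genes the interaction was negative for IFIT3 (-0.59), OAS1 (-0.57), IFIT1 (-0.65), ISG15 (-0.80), IFITM3 (-0.32), IFI27 (-1.10), RIGI (-0.76), IFIH1 (-0.39), IRF7 (-0.45), JAK1 (-0.28) and HLA-E (-0.21), and positive for SOD2 (0.31). In limma the adjusted p went from 1.3e-16 for IFI27 to 0.0371 for SOD2.

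Among genes of amino acid stress and carriers the interaction was positive for ASNS (1.47), SLC7A11 (1.44), PSAT1 (0.98), PHGDH (0.51), SLC7A5 (0.73), PCK2 (0.71), TRIB3 (0.70), ATF4 (0.36), GDF15 (1.04) and SLC6A14 (0.64). Here limma gave adjusted p-values from 7.4e-14 for ASNS to 0.0174 for SLC6A14. Among hormone targets and luminal genes the interaction was negative for TFF3 (-0.21), PDZK1 (-0.56), CITED1 (-1.04), IRS1 (-0.86) and PIP (-1.10). The adjusted p in limma ran from 5.7e-19 for PIP to 0.00154 for TFF3. Among metabolic genes the interaction was negative for AACS (-0.45), SLC16A3 (-0.42) and MT-ND5 (-0.33), and positive for GOT1 (0.28). For these limma's adjusted p lay from 6.6e-06 for MT-ND5 to 0.00964 for SLC16A3. Among genes outside these groups the interaction was negative for PLEKHS1 (-0.61), SERPINI1 (-0.96), ABCC12 (-0.91), FOLR1 (-0.34), TNNT1 (-0.38), VSIG10L (-0.57), CAMK2B (-1.14) and MDGA1 (-1.13), and positive for XAGE2 (0.95), TP53I3 (0.91), OLR1 (0.70) and CCN2 (0.70). Their limma adjusted p-values were 4.6e-16 for TP53I3 to 0.0384 for FOLR1. Among genes without a symbol the interaction was negative for ENSG00000285547 (-1.0), ENSG00000307050 (-0.90), ENSG00000303941 (-0.52) and ENSG00000290705 (-0.55). Again by limma, adjusted p-values spanned 5.5e-07 for ENSG00000285547 to 0.0034 for ENSG00000303941.

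Leaving out 1 library at a time lost the call for 4 of these interactions: those of E2F5 (limma adjusted p of 0.0566 to 0.0747 without control replicate 3 or knockout replicate 3 under vehicle or knockout replicate 1 under abemaciclib), FOLR1 (up to 0.0973, without knockout replicate 1 under vehicle), NUF2 (up to 0.0847, without control replicate 4 under vehicle) and SOD2 (up to 0.0965, without control replicate 2 under abemaciclib). Under other settings more interactions did not pass in limma. Without a filter on low values these were CCNA2 (adjusted p = 0.095), JAK1 (0.103), IFITM3 (0.0663), VSIG10L (0.06), ENSG00000303941 (0.0573), RAD54L (0.053), E2F5 (0.0799), NUF2 (0.143), SOD2 (0.136) and SLC6A14 (0.0683). Without trend they were CCNA2 (0.0549), CCND1 (0.0516), JAK1 (0.0766), NUF2 (0.0707) and SOD2 (0.0727), and after quantile normalization PLEKHS1 (0.0867), FOLR1 (0.0838) and NUF2 (0.0531). The interaction of SLC6A14 was 0.03 (limma adjusted p = 0.981) with a pseudocount of 0.1 and 0.58 (0.12) with 0.5, so its value depended on the pseudocount.

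In 25 of 370 groups of 4 abemaciclib libraries checked, 1 library stood far from the other 3 of its group by Dixon's test at the 95% level, which chance gives in about 1 in 20 groups. In control replicate 1, TFAP2B was at 2.52 CPM and at 1.06 to 1.27 CPM in the other libraries of its group, ABCC12 at 15.1 against 14.1 CPM, SIPA1 at 10.5 against 11.7 to 11.8 CPM, RBL2 at 26.5 against 22.9 to 23.4 CPM, TFDP2 at 71.5 against 58.3 to 59.4 CPM, IFITM3 at 21.3 against 25.3 to 25.7 CPM and MYD88 at 24.5 against 18.7 to 19.7 CPM. In control replicate 2, CDKN3 was at 26.7 CPM and at 29.1 to 29.6 CPM in the other libraries of its group, SLC7A5 at 89.9 against 83.6 to 84.6 CPM and TNIP1 at 49.0 against 39.8 to 40.9 CPM. In control replicate 3, IFIT3 was at 14.8 CPM and at 17.3 to 17.7 CPM in the other libraries of its group, CDKN2C at 7.14 against 6.17 to 6.31 CPM, CCNE2 at 4.84 against 6.07 to 6.22 CPM, CALR at 692 against 744 to 751 CPM and SLC6A14 at 0.425 against 0.263 to 0.289 CPM. In knockout replicate 1, ENSG00000254531 was at 33.0 CPM and at 27.5 to 28.3 CPM in the other libraries of its group. In knockout replicate 2, CDKN3 was at 18.2 CPM and at 21.5 to 22.0 CPM in the other libraries of its group and CDC25A at 2.48 against 1.01 to 1.18 CPM. In knockout replicate 3, TFDP2 was at 60.6 CPM and at 65.3 to 65.6 CPM in the other libraries of its group, CCNE1 at 6.79 against 4.69 to 4.90 CPM, CDK2 at 36.8 against 34.0 to 34.4 CPM, NFKB2 at 29.3 against 31.5 to 31.8 CPM and GINS2 at 42.9 against 39.3 to 39.8 CPM. In knockout replicate 4, SKP2 was at 14.9 CPM and at 17.2 to 17.6 CPM in the other libraries of its group and ENSG00000290705 at 10.2 against 11.3 to 11.5 CPM.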

How the results depend on the processing

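Leaving out 1 library at a time gave 2559 to 3074 higher and 1605 to 1818 lower genes under abemaciclib, 3515 to 4115 and 1846 to 2162 under vehicle, and 628 to 804 positive and 836 to 1122 negative interactions. Counting only changes of at least 2-fold gave 46 and 56 genes under abemaciclib, 84 and 29 under vehicle, and 6 positive and 16 negative interactions. Without a filter on low values the interaction counts were 494 and 578, with more genes tested. Under the other settings (pseudocounts of 0.1 and 0.5, at least 5 CPM, voom, limma without trend, the 8 libraries alone) each of these counts stayed within 1.5 times its value. Median-of-ratios and quantile scaling moved the share of higher genes under vehicle from 65.6% to 48.4% and 50.5%, and the share of positive interactions from 43.2% to 50.4% and 43.1%. The fit with the replicate number as a block gave 3000 higher and 1824 lower genes under abemaciclib. Libraries of the same number deviated together with correlations of 0.02, -0.08, 0.14 and -0.08, so the numbers are not taken as pairs.

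Of the 170 genes checked, 143 passed under abemaciclib, 138 of them in all of the settings tried, and none of the 143 changed sign. The 5 exceptions were E2F2, CCND2, HLA-E, SKP2 and TFDP1, and TFDP1 did not pass without a filter (limma adjusted p = 0.0596). The interaction of SLC6A14, at 0.64, was 0.03 with a pseudocount of 0.1 and -0.27 with voom on fractional reads (limma adjusted p = 0.981 and 0.764), and the cause was not tested. Ribosomal protein genes that fell were 10 with limma without trend and 18 without a filter. At 10380902 to 11773799 reads per library, 1 CPM is about 10 to 12 reads, so genes near the filter carry large counting error.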
